A study of Danio rerio with 7 samples.

Results

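The 32 genes described here encode the enzymes of glycolysis and lactate dehydrogenase in whole zebrafish larvae. They were chosen by symbol, from hexokinase (hk1, hk2) to lactate dehydrogenase (ldha, ldhba, ldhbb), and all 32 were found among the 32520 reference genes of the deposited abundance files. All 32 also passed the filter on low values, 1 TPM or more in 2 or more of the 7 libraries, as did 18169 genes in all. TPM, transcripts per 1000000, is a level corrected for transcript length and library size. All larvae carried a CD36 overexpression transgene and were 15 days post fertilization old. CD36 imports fatty acids across the cell membrane. The promoter that drives its expression in these fish was not given in the sources used here. Larvae on the high-fat diet (24%) bathed overnight after their last meal in CACF at 40 µg/ml gave 2 libraries, fish 2 and fish 4. Larvae on the high-fat diet without CACF gave 2 libraries, fish 2 and fish 4, and larvae on the normal diet (12%) gave 3, fish 1, fish 2 and fish 4. The diets ran from day 5, with paramecia as further food for every group. CACF is not spelled out in the labels. CACF larvae differ from normal-diet larvae in both diet and agent, and both CACF comparisons use the same 2 CACF libraries, as both comparisons with the normal diet use its 3 libraries. Separate clutches are not stated, nor is the number of larvae behind a library, and the p-values therefore measure no more than the spread among these 7 libraries, which may be technical.

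Glycolysis splits glucose into pyruvate in a chain of enzyme steps, and lactate dehydrogenase interconverts pyruvate and lactate. Most steps are served by several genes whose mammalian counterparts are named for the tissue in which they prevail, such as muscle enolase (eno3), neuronal enolase (eno2) and liver pyruvate kinase (pklr). Hexokinase, phosphofructokinase and pyruvate kinase catalyse the steps that are practically irreversible in cells, and phosphofructokinase is the main point of control. In whole larvae, fewer cells of a type and less RNA per cell cannot be told apart. The tissue names below follow the mammalian isoforms and were not measured as tissues here.

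Libraries held 12699552 to 22543693 reads assigned to genes, with the fewest in the 2 high-fat libraries. Mitochondrial genes took 28.2% and 20.9% of reads in CACF fish 2 and fish 4, 10.8% to 14.0% in the high-fat libraries and 7.74% to 17.8% in the normal-diet libraries. CACF fish 2 and normal-diet fish 1 stood apart, each with a median correlation of 0.875 with the other 6 libraries across genes, where the other 5 libraries had 0.940 to 0.946. Normal-diet fish 1 also held a summed 41438 TPM of 19 lens genes, against 320.2 to 978.7 TPM elsewhere. The part of these differences in the values below was not tested.

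Together the 32 genes made up 4834 and 4023 TPM in CACF fish 2 and fish 4, 4088 and 4058 TPM on the high-fat diet, and 3859, 5475 and 4108 TPM in normal-diet fish 1, 2 and 4. The group ranges of this sum overlapped, and it came to 0.474% to 0.675% of the TPM of all reference genes. Averaged over the 7 libraries, 12 genes had at least 100 TPM, 13 lay between 10 and 100 TPM and 7 were below 10 TPM. The 3 most abundant were gapdh (833 TPM), gapdhs (642 TPM) and muscle enolase eno3 (467 TPM), which held 44.6% of the summed mean level. The 7 lowest were 5 of the 6 phosphofructokinase genes, gpib and hk2. In 21 of 32 genes the highest TPM was less than 3 times the lowest. By that ratio gpib (19.6), hk2 (8.17) and pklr (6.18) varied most.

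**Figure D1:**
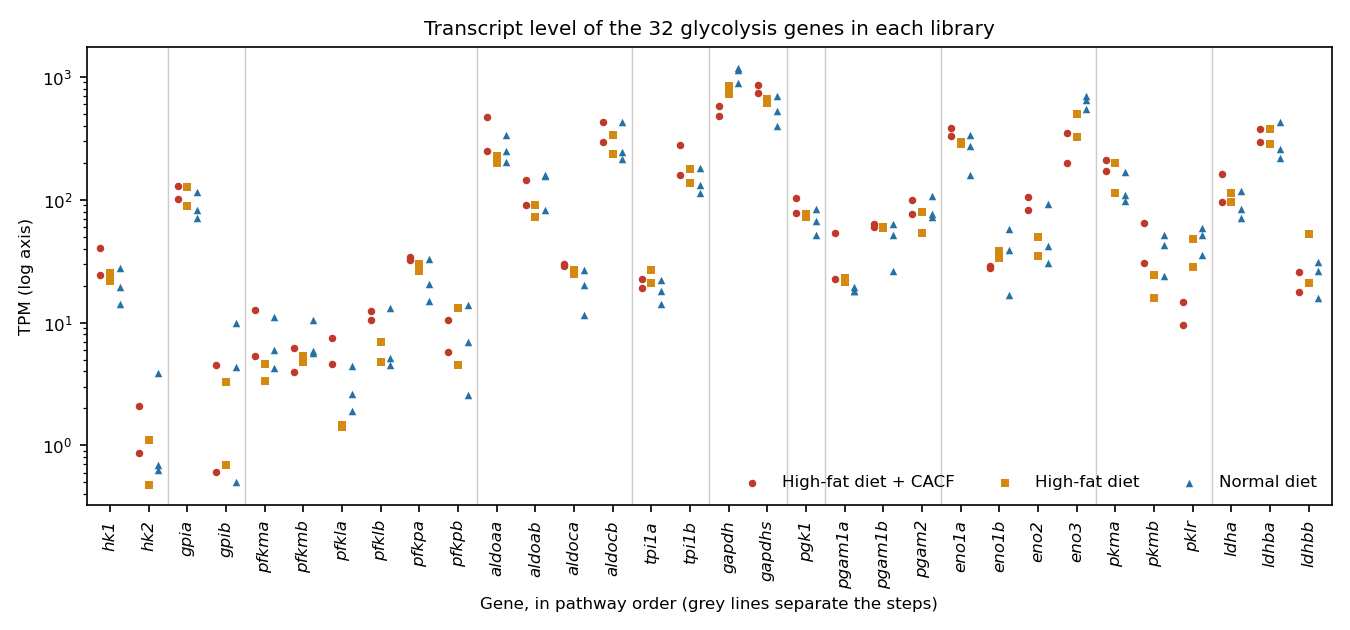
TPM of each of the 32 genes (horizontal axis, in pathway order, with grey lines between the steps) on a log axis, 1 symbol per library, with CACF (circles), high-fat diet (squares) and normal diet (triangles) side by side. The 2 CACF circles of pklr (9.57 and 14.7 TPM) lie below all 5 other libraries, as do those of gapdh (482 and 583 TPM).

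Hexokinase, which traps glucose in the cell as glucose-6-phosphate, was mainly hk1. hk1 had 40.6 and 24.2 TPM in CACF libraries, 25.3 and 21.7 TPM in high-fat libraries, and 14.1, 27.7 and 19.6 TPM in normal-diet libraries, and the groups overlapped. hk2, the muscle-type hexokinase, was near the filter at 0.480 to 2.08 TPM in 6 libraries and 3.92 TPM in normal-diet fish 1, where it made up 21.8% of the step against 1.87% to 4.88% elsewhere. The next step, glucose-6-phosphate isomerase, was 92.1% to 99.4% gpia in every library. gpia had 130 and 102 TPM in CACF libraries, 128 and 88.5 TPM in high-fat libraries, and 71.2, 115 and 82.9 TPM in normal-diet libraries. Its groups overlapped in both CACF comparisons and between the diets.

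Phosphofructokinase commits the sugar to glycolysis, and its 6 genes together had 75 and 70.8 TPM in CACF libraries, 51.9 and 55.0 TPM in high-fat libraries, and 40.8, 73.7 and 52.6 TPM in normal-diet libraries. Platelet-type pfkpa was the main form in every library, at 36.8% to 58.3% of the step. The liver-type gene pfkla (ENSDARG00000060504, GRCz11 chr9:52628899-52678995, minus strand) had 7.49 and 4.58 TPM in CACF libraries, 1.48 and 1.40 TPM in high-fat libraries, and 1.91, 4.43 and 2.61 TPM in normal-diet libraries. Both CACF libraries were above all 5 others for pfkla, and both high-fat libraries were below all 3 of the normal diet, though CACF fish 4 and normal-diet fish 2 were close. The deposited normalized counts of pfkla had the same order, with 367 and 216 in CACF libraries, 95.6 and 79.6 in high-fat libraries, and 127, 188 and 150.1 in normal-diet libraries. For CACF over high-fat diet the log2 fold change of pfkla in TPM plus 1 was 1.5 ± 0.43 (SE), which did not pass (limma, adjusted p = 0.125). It passed when the fish number was added as a block of the limma fit (adjusted p = 0.0333) and in DESeq2 on reads recovered from the normalized counts (1.74, adjusted p = 0.00794). For CACF over normal diet it was 0.84 ± 0.39 (adjusted p = 0.402), and for high-fat over normal diet -0.66 ± 0.39 (adjusted p = 1.0), with no call by either of those tests. The second liver-type gene pfklb also separated the CACF libraries (10.5 and 12.4 TPM) from the high-fat libraries (6.92 and 4.78 TPM), but not from the normal diet (4.49, 13.2 and 5.13 TPM).

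Of the muscle-type genes, pfkma had 12.7 and 5.34 TPM in CACF libraries, 3.34 and 4.59 TPM in high-fat libraries, and 11.2, 5.96 and 4.29 TPM in normal-diet libraries, so that CACF fish 2 and normal-diet fish 1, the libraries that stood apart, were highest. Like pfklb, pfkma had both CACF libraries above both high-fat libraries and overlapped the normal diet. pfkmb had 6.18 and 3.95 TPM in CACF libraries, 5.37 and 4.79 TPM in high-fat libraries, and 5.60, 10.5 and 5.90 TPM in normal-diet libraries. The high-fat libraries were below all 3 of the normal diet for pfkmb, at a log2 fold change of -0.41 ± 0.39 (limma, adjusted p = 1.0). pfkpb had 5.72 and 10.4 TPM in CACF libraries, 4.50 and 13.2 TPM in high-fat libraries, and 2.58, 7.01 and 13.9 TPM in normal-diet libraries, with fish 4 highest in each group.

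Aldolase cleaves the sugar into a pair of triose phosphates, and the muscle-type aldoaa and brain-type aldocb made up most of it. aldoaa had 467 and 247 TPM in CACF libraries, 226 and 200 TPM in high-fat libraries, and 202, 337 and 250 TPM in normal-diet libraries. aldocb had 429 and 293 TPM in CACF libraries, 333 and 233 TPM in high-fat libraries, and 215, 425 and 246 TPM in normal-diet libraries. In TPM, CACF fish 2 was the highest library for both, while CACF fish 4 lay inside the normal-diet range. In normalized counts aldocb had 12524 in CACF fish 2, below high-fat fish 2 (14954.5) and normal-diet fish 2 (14362). The second muscle-type gene aldoab had 145 and 90.8 TPM in CACF libraries, 72 and 91.1 TPM in high-fat libraries, and 155, 160.1 and 82.7 TPM in normal-diet libraries, with overlap throughout. The lower brain-type gene aldoca had 28.6 and 29.8 TPM in CACF libraries, 26.6 and 24.8 TPM in high-fat libraries, and 11.6, 26.6 and 20.1 TPM in normal-diet libraries. Its CACF libraries were above the normal diet in TPM and in normalized counts, by a log2 fold change of 0.63 ± 0.41 that did not pass (limma, adjusted p = 0.535). Of the triosephosphate isomerase genes, which interconvert these products, tpi1b held 86.7% to 93.6% of the step. tpi1b had 280.1 and 158 TPM in CACF libraries, 178 and 137 TPM in high-fat libraries, and 114, 182 and 132 TPM in normal-diet libraries, and again CACF fish 2 was highest. Its paralog tpi1a had 19.0 and 22.5 TPM in CACF libraries, 26.8 and 21.1 TPM in high-fat libraries, and 14.1, 22.2 and 17.9 TPM in normal-diet libraries, and the groups overlapped.

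Glyceraldehyde-3-phosphate dehydrogenase, the oxidation step that yields NADH, was shared by gapdh and gapdhs, whose shares did not overlap between the 3 groups. gapdh (ENSDARG00000043457, GRCz11 chr16:17189839-17200120, minus strand) had 482 and 583 TPM in CACF libraries, 728 and 835 TPM in high-fat libraries, and 1182, 1126 and 897 TPM in normal-diet libraries. The 3 groups did not overlap, in the order CACF, high-fat diet, normal diet from low to high. Group means were 532 ± 71.5 TPM in CACF libraries, 782 ± 75.4 TPM in high-fat libraries (SD, n = 2 each) and 1068 ± 151 TPM in normal-diet libraries (SD, n = 3). The paralog gapdhs, named for the mammalian spermatogenic form, was highest in the CACF libraries in TPM, with 857 and 741 TPM in CACF libraries, 617 and 657 TPM in high-fat libraries, and 399, 699 and 527 TPM in normal-diet libraries. In normalized counts its CACF libraries (17493 and 14998) were above the normal diet (12329, 13469 and 12270.4) but overlapped the high-fat diet (15198 and 15246). In TPM gapdhs made up 64.0% and 56.0% of the step in CACF libraries, 45.8% and 44.0% in high-fat libraries, and 25.2%, 38.3% and 37.0% in normal-diet libraries. In normalized counts, which are not corrected for length, the share was 65.4% and 57.5% in CACF libraries, 48.4% and 45.6% in high-fat libraries, and 27.2%, 40.0% and 39.3% in normal-diet libraries. These shares do not depend on how the libraries were scaled, and no test was run on them. The log2 fold change of gapdh for CACF over normal diet was -1.0 ± 0.36 (limma, adjusted p = 0.321), while DESeq2 called it (-1.23, adjusted p = 0.0184). The authors' deposited log2 fold change of gapdh for this contrast was -1.24 (Wald test, adjusted p = 0.455). Quantile normalization gave -0.52 for the same contrast. gapdhs had 0.59 ± 0.38 in limma (adjusted p = 0.53) and was not called in DESeq2. The summed level of the step was 1338 and 1324 TPM in CACF libraries, 1345 and 1492 TPM in high-fat libraries, and 1581, 1826 and 1423 TPM in normal-diet libraries.

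The single phosphoglycerate kinase gene of the list, pgk1, whose enzyme makes ATP, had 103 and 77.6 TPM in CACF libraries, 72.2 and 77.0 TPM in high-fat libraries, and 51.8, 84.7 and 67.3 TPM in normal-diet libraries. Its CACF and normal-diet libraries overlapped. Phosphoglycerate mutase moves the phosphate within the molecule. Its brain-type gene pgam1a had 53.6 TPM in CACF fish 2 and 18.2 to 23.1 TPM in the other 6 libraries. Its log2 fold change for CACF over normal diet was 0.87 ± 0.42 (limma, adjusted p = 0.415), and 0.26 without CACF fish 2. pgam1b had 62.9 and 59.6 TPM in CACF libraries, 59.9 and 58.6 TPM in high-fat libraries, and 26.3, 63.1 and 51.3 TPM in normal-diet libraries, with normal-diet fish 1 as the low exception. Muscle-type pgam2 had 53.4 to 107 TPM, but 0.383 TPM per normalized count where the other 31 genes had 0.0111 to 0.0519. It lies on the minus strand across rpl17, a ribosomal protein gene on the plus strand. The library kit keeps strand, but whether counting used strand was not given in the sources used here, so reads of the pair may not have been told apart. In normalized counts pgam2 had 160.5 and 178 in CACF libraries, 116 and 149 in high-fat libraries, and 471, 222 and 175 in normal-diet libraries.

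Enolase, which forms phosphoenolpyruvate, was mainly eno3 and eno1a, and neither share overlapped between CACF and normal-diet libraries. Muscle enolase eno3 (ENSDARG00000039007, GRCz11 chr23:44611864-44625579, plus strand) had 199.6 and 351 TPM in CACF libraries, 322 and 495 TPM in high-fat libraries, and 551, 695 and 652 TPM in normal-diet libraries. Every normal-diet library was above the other 4, while CACF and high-fat libraries overlapped in TPM. In normalized counts eno3 had 5923 and 10330.4 in CACF libraries, 12982 and 18114 in high-fat libraries, and 22969, 18790 and 21614 in normal-diet libraries, and there all 3 groups separated. For CACF over normal diet its log2 fold change was -1.25 ± 0.40 (limma, adjusted p = 0.281), and DESeq2 called it lower (-1.37, adjusted p = 0.00559). The authors' deposited log2 fold change for that contrast was -1.38 (Wald test, adjusted p = 0.421). For high-fat over normal diet limma gave -0.66 ± 0.40 for eno3 (adjusted p = 1.0). Neuronal enolase eno2 had 106 and 81.9 TPM in CACF libraries, 49.5 and 35.0 TPM in high-fat libraries, and 30.8, 91.4 and 42.1 TPM in normal-diet libraries. Both CACF libraries were above both high-fat libraries, by a log2 fold change of 1.14 ± 0.51 that did not pass (limma, adjusted p = 0.344), but normal-diet fish 2 lay between the CACF libraries. The widely expressed eno1a had 383 and 329 TPM in CACF libraries, 286 and 294 TPM in high-fat libraries, and 158, 333 and 272 TPM in normal-diet libraries. eno3 thus made up 27.8% and 44.4% of enolase TPM in CACF libraries, 46.3% and 57.8% in high-fat libraries, and 72.8%, 59.1% and 64.9% in normal-diet libraries. eno1a held 53.4% and 41.7% in CACF libraries, 41.1% and 34.3% in high-fat libraries, and 20.9%, 28.3% and 27.1% in normal-diet libraries. The lower paralog eno1b was at 29.1 and 27.8 TPM in CACF libraries, below both high-fat libraries (38.1 and 33.3 TPM), and at 16.9 to 57.3 TPM on the normal diet.

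**Figure D2:**
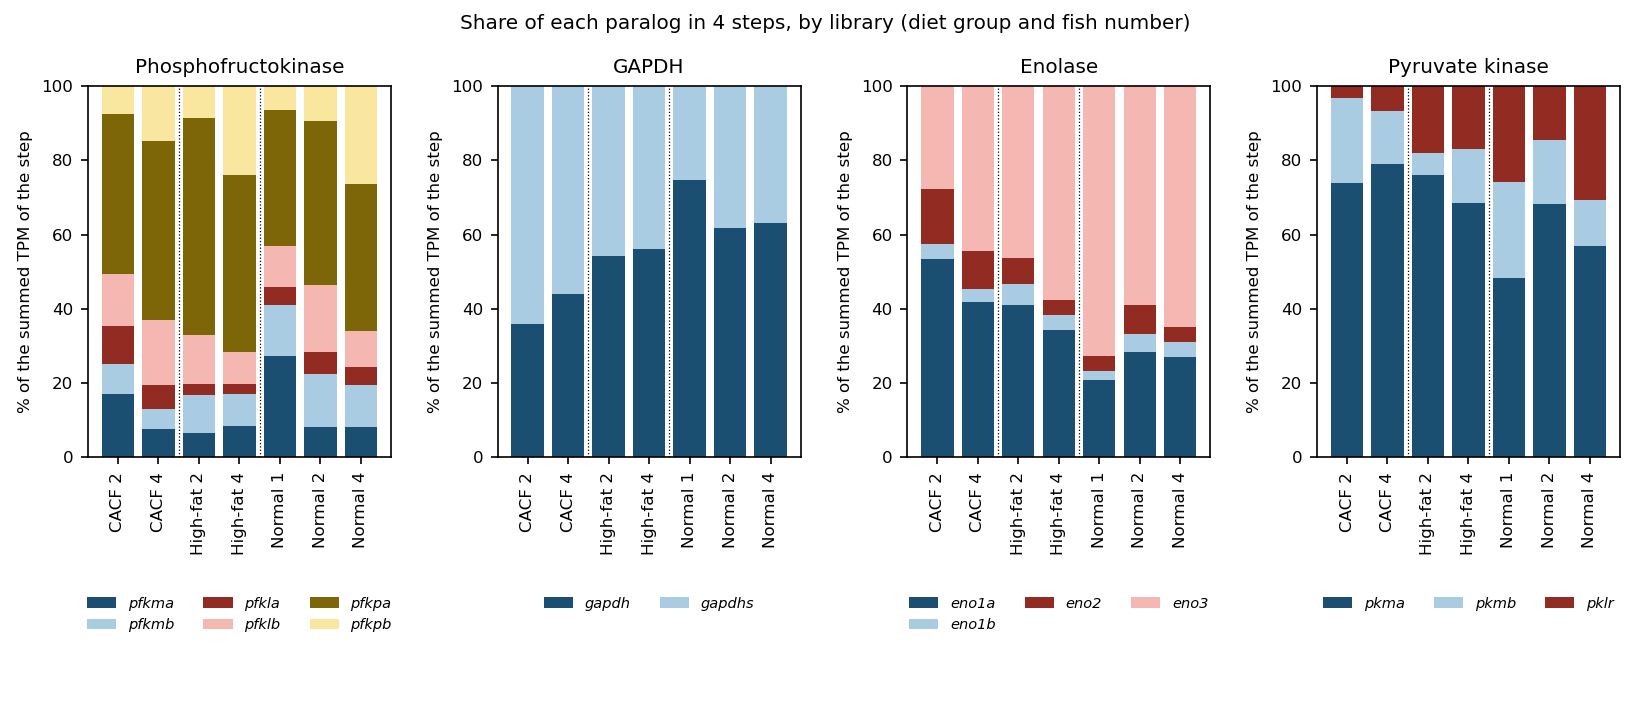
Share of each gene (stacked colours) in the summed TPM of its step, in percent, for 4 steps, with 1 bar per library in the order CACF, high-fat diet, normal diet (dotted lines between groups, digits are fish numbers). From left to right the gapdh and eno3 parts are larger and the gapdhs and eno1a parts smaller, with gapdhs at 64.0% and 56.0% in CACF libraries against 25.2% to 38.3% on the normal diet.

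Pyruvate kinase makes the last ATP of the pathway, and its liver-type gene pklr had the largest fold change of the 32 genes between CACF and normal-diet libraries. pklr (ENSDARG00000042010, GRCz11 chr16:54450407-54455573, minus strand) had 9.57 and 14.7 TPM in CACF libraries, 47.8 and 28.1 TPM in high-fat libraries, and 51.9, 35.5 and 59.1 TPM in normal-diet libraries. Both CACF libraries were below all 5 others, and the diets overlapped. In normalized counts pklr had 249 and 371 in CACF libraries, 1443 and 818 in high-fat libraries, and 2006, 854 and 1699 in normal-diet libraries, with the same separation. The TPM averaged 12.1 ± 3.6 in CACF libraries, 38.0 ± 14.0 in high-fat libraries (SD, n = 2 each) and 48.8 ± 12.1 in normal-diet libraries (SD, n = 3). The log2 fold change for CACF over normal diet was -1.92 ± 0.42, which did not pass in limma (adjusted p = 0.131), and with each library left out in turn it lay between -2.21 and -1.64. It passed in DESeq2 (-2.29, adjusted p = 5.68e-05) and when limma moderated the variances robustly (adjusted p = 0.0477), but not in edgeR (-2.31, adjusted p = 0.166). In the authors' deposited table the same contrast had a log2 fold change of -2.29 and an adjusted p of 0.209. For CACF over high-fat diet pklr had -1.55 ± 0.46 in limma (adjusted p = 0.136), -1.87 in DESeq2 (adjusted p = 0.00624) and an adjusted p of 0.0444 with the fish number as a block. For high-fat over normal diet it had -0.37 ± 0.42 (limma, adjusted p = 1.0).

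The other pyruvate kinase genes, pkma and pkmb, correspond to the muscle-type gene of mammals. pkma, the main form, had 210.2 and 171 TPM in CACF libraries, 199.9 and 114 TPM in high-fat libraries, and 96.9, 168 and 109 TPM in normal-diet libraries. In normalized counts pkma had 4365 and 3176 in CACF libraries, above both high-fat libraries (3013 and 1849), while in TPM these groups overlapped. For high-fat over normal diet its log2 fold change was 0.32 in TPM and -0.19 in normalized counts. pkmb had 65.1 and 30.3 TPM in CACF libraries, 15.7 and 24.2 TPM in high-fat libraries, and 51.5, 42.7 and 24.0 TPM in normal-diet libraries. The CACF libraries were above both high-fat libraries for pkmb, by a log2 fold change of 1.15 ± 0.51 (limma, adjusted p = 0.329), and overlapped the normal diet. pklr accordingly made up 3.36% and 6.80% of pyruvate kinase TPM in CACF libraries, 18.2% and 16.9% in high-fat libraries, and 25.9%, 14.4% and 30.7% in normal-diet libraries.

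**Figure D3:**
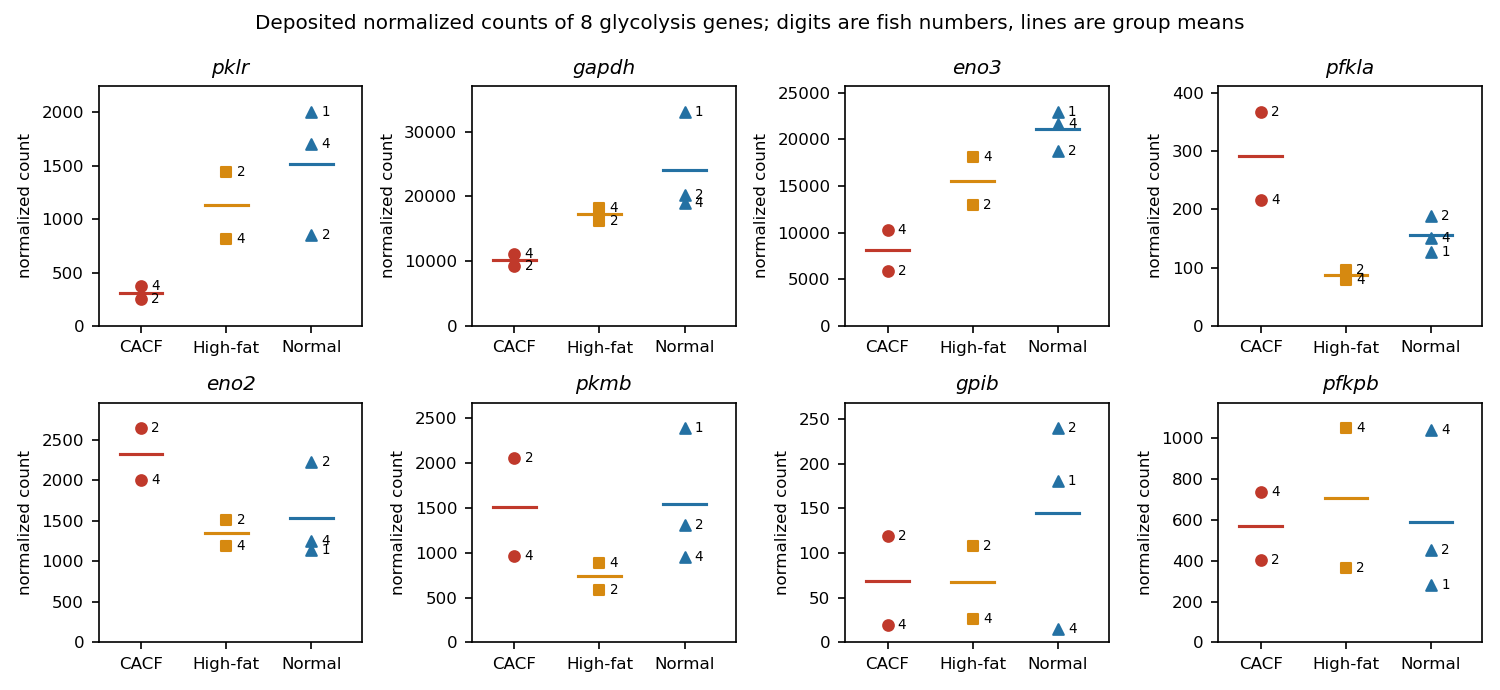
Deposited normalized counts (vertical axes, from 0) of 8 genes in each library, with CACF left of high-fat diet and normal diet, digits for the fish and lines for group means. The CACF libraries are lowest for pklr, gapdh and eno3 and highest for pfkla, while gpib and pfkpb split by fish number in every group.

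Lactate dehydrogenase was led by the heart-type gene ldhba, with 373 and 297 TPM in CACF libraries, 373 and 283 TPM in high-fat libraries, and 218, 426 and 259 TPM in normal-diet libraries. Muscle-type ldha had 162 and 95.5 TPM in CACF libraries, 113 and 95.5 TPM in high-fat libraries, and 70.9, 117 and 83.2 TPM in normal-diet libraries. Their groups overlapped in each of the 3 comparisons. The share of ldha in the summed lactate dehydrogenase TPM was 20.3% to 29.3% across the 7 libraries. The second heart-type gene ldhbb had 17.8 and 25.7 TPM in CACF libraries, 20.9 and 52.5 TPM in high-fat libraries, and 15.7, 31.3 and 26.5 TPM in normal-diet libraries. In normalized counts it had 397 and 573 in CACF libraries, 625 and 658 in high-fat libraries, and 522, 604 and 652 in normal-diet libraries. There both CACF libraries were below both high-fat libraries, while the TPM of these groups overlapped.

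Across the whole list, CACF over normal diet put 24 genes above and 8 below 0. Of all 18169 genes tested, 11595 were above and 6574 below 0. The list had a median log2 fold change of 0.36, beside a median of 0.19 for all genes tested. With median-of-ratios scaling the medians were 0.12 for the list and 0.01 for all genes, and without normal-diet fish 1 they were 0.24 and 0.02, so a fold change in TPM is to be read against 0.19. No glycolysis gene passed in limma at an adjusted p of 0.05, where 14 genes (0.0771% of those tested) did, all lower. Unadjusted, 3 of the 32 had p below 0.05 in TPM, all lower (pklr, eno3 and gapdh), beside 4.33% of all genes lower and 8.13% higher. In limma on the normalized counts 3 were lower and 1 higher at that level, beside 1796 and 1075 of all 20906 genes. DESeq2 called pklr, eno3 and gapdh, with 2.27% of all genes called. That share is over all 29567 genes with normalized counts, not filtered beforehand on low values, unlike the other shares given here. Genes to which DESeq2 gave no adjusted p count in it as not called, so the share among genes with an adjusted p was higher. edgeR called none (0.0188% of all genes), nor did limma on the normalized counts (0.148%) or the fit with the fish number as a block (0.853%). With robust moderation pklr was the 1 gene called, beside 0.352% of all genes. In TPM the groups did not overlap for 5 of 32 genes higher (15.6%, beside 19.2% of all genes) and 3 lower (9.38%, beside 8.72%). In normalized counts they did not overlap for 5 higher (beside 16.3% of all genes) and 4 lower (beside 16.7%). These shares were near the background. Leaving out single libraries moved the list median, which was 0.15 without CACF fish 2 and 0.56 without CACF fish 4, beside 0.22 and 0.16 for all genes.

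CACF over high-fat diet, in which both groups had the same diet, put 24 genes above and 8 below 0. Of all 18169 genes tested, 11426 were above and 6743 below 0. The median of the list was 0.28, beside 0.16 for all genes. In normalized counts the list was evenly divided, 16 and 16, with a median of 0.00 beside -0.01 for all genes. None passed in limma on TPM, where 1 gene (0.0055%) did. Of the 32, 4 had an unadjusted p below 0.05 there: pfkla, pkmb and eno2 higher, beside 11.4% of all genes, and pklr lower, beside 2.41%. In limma on the normalized counts 1 was higher and 3 lower at that level, beside 2029 and 1305 of all 20906 genes. Both DESeq2 (3.25% of all 29567 genes, those without an adjusted p counted as not called) and the fit with the fish number as a block (5.17%) called pfkla higher and pklr lower. Neither called another glycolysis gene. edgeR (0% of all genes) and limma on the normalized counts (0.0143%) called none of the 32. Groups did not overlap in TPM for 11 genes higher (34.4%, beside 36.2% of all genes) and 3 lower (9.38%, beside 13.4%). In normalized counts they did not overlap for 7 higher and 7 lower (21.9% each, beside 24.8% and 23.2% of all genes). The list median was 0.06 without CACF fish 2 and 0.47 without CACF fish 4, beside 0.18 and 0.15 for all genes.

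For high-fat over normal diet, the comparison of the diets alone, 17 genes were above and 15 below 0. Of all genes tested, 8569 were above and 9599 below 0. The median of the list was 0.12, beside -0.03 for all genes. None of the 32, and none of all genes tested (0%), passed in limma, edgeR or DESeq2. No glycolysis gene had an unadjusted p below 0.05 in limma on TPM, beside 0.66% of all genes higher and 2.65% lower. In limma on the normalized counts 2 of the 32 had, both lower, beside 976 of all 20906 genes lower and 287 higher. The groups did not overlap in TPM for 1 gene higher, pgam1a (3.12%, beside 6.11% of all genes), and 4 lower, pfkmb, pfkla, gapdh and eno3 (12.5%, beside 12.1%). In normalized counts 7 higher and 7 lower did not overlap (21.9% each, beside 11.5% and 14.1% of all genes). Without normal-diet fish 1 the median of the list turned to -0.14, beside -0.18 for all genes. In the authors' deposited tables no glycolysis gene had an adjusted p below 0.05 in either comparison with the normal diet. The smallest value for high-fat over normal diet was 0.86. Of all genes with an adjusted p there, 60 of 21375 were below 0.05 for high-fat over normal diet. For CACF over normal diet 278 of 20803 were.

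**Figure D4:**
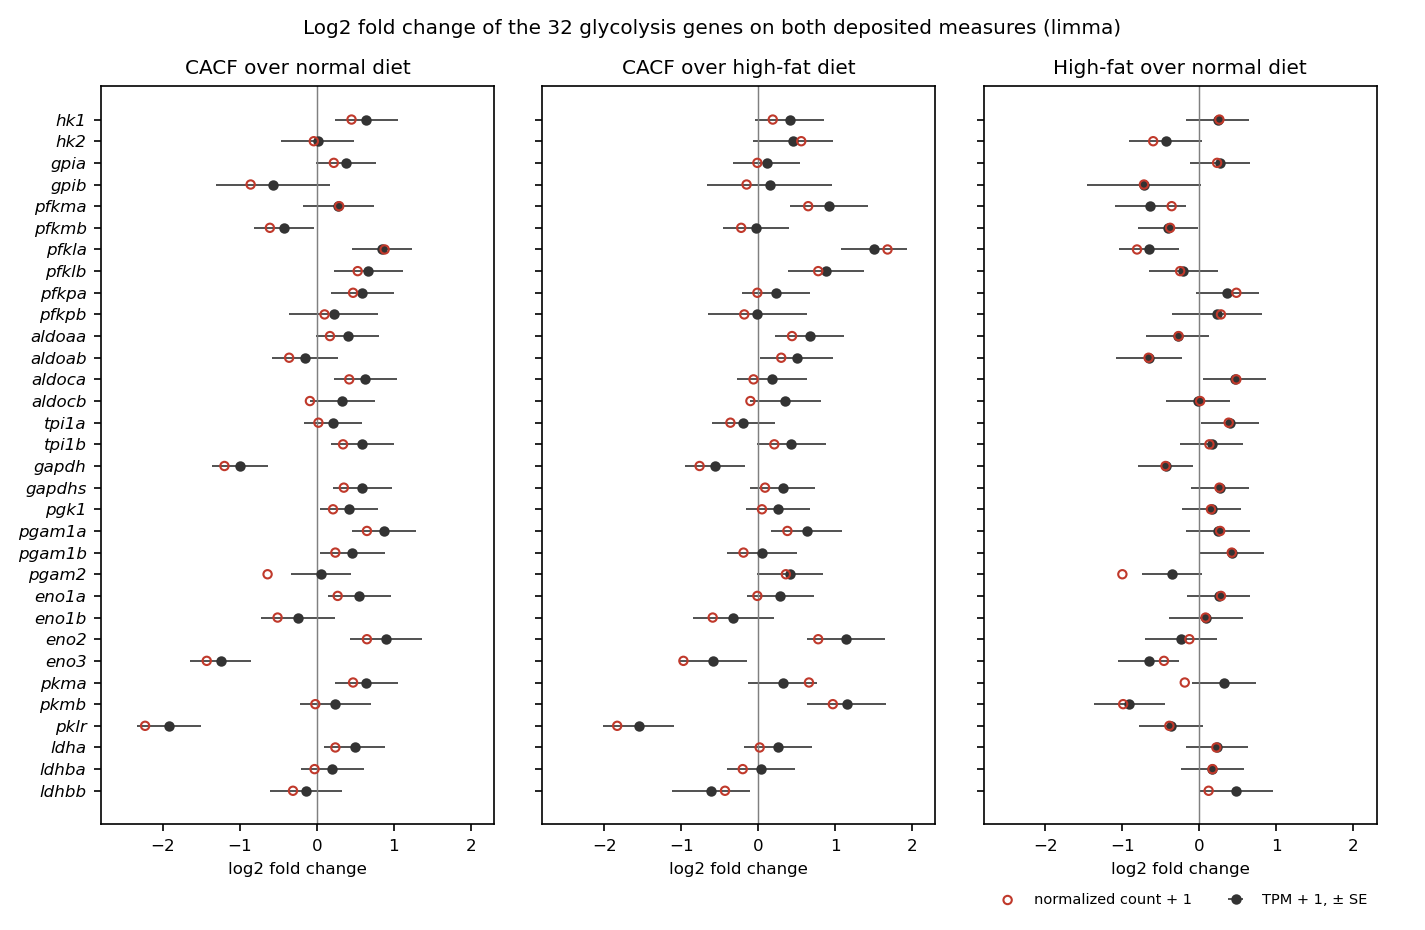
Log2 fold change (horizontal axes) of the 32 genes in the 3 comparisons, in TPM plus 1 with SE bars (filled) and in deposited normalized count plus 1 (open), from limma. pklr is farthest left in both CACF panels (-1.92 and -1.55 in TPM), pfkla farthest right for CACF over high-fat diet (1.5), and none of the 32 passed in these limma fits.

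Grouped by the tissue of the mammalian isoform, all 8 brain-type genes (hk1, pfkpa, pfkpb, aldoca, aldocb, pgam1a, pgam1b, eno2) were above 0 for CACF over normal diet, with a median log2 fold change of 0.61. The platelet-type pfkpa and its paralog pfkpb were counted in this class although they are not named for brain. Of all 18169 genes tested in TPM, 11595 were above 0 for CACF over normal diet and 11426 for CACF over high-fat diet. With median-of-ratios and quantile scaling all 8 stayed above 0, but in limma on the normalized counts it was 7 of 8 (aldocb below), without normal-diet fish 1 also 7 of 8 (pfkpb below), and in edgeR and DESeq2 6 of 8 (both below). Against the high-fat diet 7 of 8 were above 0 for CACF in TPM, with a median of 0.29, but 3 of 8 in normalized counts (median -0.03), in edgeR and in DESeq2. None passed on either scale. Their summed level was 758 and 555 TPM in CACF libraries, 550.2 and 436 TPM in high-fat libraries, and 335, 691 and 432 TPM in normal-diet libraries, so the groups overlapped. Of the neuronal markers, 21 of 23 were above 0 for CACF over normal diet, with a median of 0.69 and none passed, and their summed level was 3095 to 3291 TPM in CACF libraries, 2433 to 2665 TPM in high-fat libraries and 1543 to 3740 TPM in normal-diet libraries. None of the 23 was at 0 in all libraries. Their part in the levels of the brain-type genes was not tested.

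The 10 muscle-type genes were hk2, pfkma, pfkmb, aldoaa, aldoab, pgam2, eno3, pkma, pkmb and ldha. For CACF over normal diet 7 were above and 3 below 0 in TPM, and 4 above and 6 below in normalized counts. In TPM, 2 were above and 8 below without CACF fish 2, and 8 above and 2 below without CACF fish 4. Without normal-diet fish 4, 4 were above and 6 below. Of all genes, 11595 of 18169 in TPM and 10448 of 20906 in normalized counts were above 0 for this comparison. Against the high-fat diet, 8 of 10 were above 0 for CACF in TPM (median 0.43) and in normalized counts (median 0.40), and none passed. Of all genes, 11426 of 18169 in TPM and 10313 of 20906 in normalized counts were above 0 there. For high-fat over normal diet, 8 of 10 were below 0 in TPM and 9 of 10 in normalized counts. The median was -0.42 on both scales and none passed. Of all genes, 9599 of 18169 in TPM and 11296 of 20906 in normalized counts were below 0 there. Beside eno3, fast skeletal muscle markers had a summed level of 37984 and 44153 TPM in CACF libraries, 32284 and 70945 TPM in high-fat libraries, and 41547, 54707 and 71522 TPM in normal-diet libraries. For CACF over normal diet 21 of the 26 muscle marker genes tested were below 0, with a median of -0.40 and none passed, while eno3 had -1.25. The fast muscle sums of CACF and normal-diet libraries overlapped. Slow skeletal muscle markers summed to 143 and 195 TPM in CACF libraries, 144 and 304 TPM in high-fat libraries, and 224, 262 and 348 TPM in normal-diet libraries. Both CACF libraries were below the normal diet there, as for eno3, and 9 of the 10 slow markers were below 0 (median -0.61, none passed). The part of muscle content in the eno3 values was not tested.

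The liver-type genes were divided. For CACF over high-fat diet pfkla and pfklb were above 0 (1.5 and 0.88) and pklr below (-1.55). The 20 hepatocyte markers, none at 0 in all libraries, summed to 1004 and 1161 TPM in CACF libraries, 1240 and 2132 TPM in high-fat libraries, and 1609, 486 and 1767 TPM in normal-diet libraries. Of the 19 tested, 16 were below 0 for CACF over high-fat diet (median -0.50) and 15 for CACF over normal diet (median -0.24), and none passed. Enterocyte markers summed to 104 and 288 TPM in CACF libraries, 748 and 426 TPM in high-fat libraries, and 1515, 409.9 and 596 TPM in normal-diet libraries. Both CACF libraries had less of these gut markers than all 5 others, as for pklr, and all 11 tested, of 15, were below 0 for CACF over high-fat diet (median -1.73, none passed). Erythrocyte markers went the other way from pklr. Of the 9 tested, 7 were above and 2 below 0 in both CACF comparisons, and none passed. Their medians were 0.40 over normal diet and 0.77 over high-fat diet, beside 0.19 and 0.16 for all genes tested. The part of hepatocyte, enterocyte and erythrocyte content in the pklr values was not tested.

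Around the pathway, 11 lists of genes that feed or drain glycolysis held 123 tested genes, and none passed in limma in any comparison. mpi, which feeds mannose into the pathway, averaged 2.64 ± 0.975 TPM in CACF libraries and 0.918 ± 0.422 TPM in normal-diet libraries (log2 fold change 0.92 ± 0.35, limma, adjusted p = 0.331). The normal-diet average of mpi was below the filter of 1 TPM. The pyruvate dehydrogenase kinases, which shut pyruvate out of mitochondrial oxidation, included pdk3a, which had the smallest p-value of the surrounding genes. pdk3a averaged 5.23 ± 2.08 TPM in CACF libraries, 0.442 ± 0.0787 TPM in high-fat libraries (SD, n = 2 each) and 1.27 ± 0.861 TPM in normal-diet libraries (SD, n = 3). Its log2 fold change for CACF over high-fat diet was 2.07 ± 0.44 (limma, adjusted p = 0.0966), and it passed in the fit that blocks on fish number (adjusted p = 0.0207). pdk4 averaged 3.24 ± 0.0657 TPM in CACF libraries, 0.518 ± 0.284 TPM in high-fat libraries and 1.58 ± 0.984 TPM in normal-diet libraries, with 1.49 ± 0.42 for CACF over high-fat diet (adjusted p = 0.12, and 0.0348 with the block). The high-fat averages of pdk3a and pdk4 were below the filter of 1 TPM. These kinases were drawn from a list that also names subunits of the pyruvate dehydrogenase complex, its phosphatases and pyruvate carriers. Of the 14 tested genes of that whole list, 11 were above 0 for CACF over high-fat diet (median 0.34), beside 11426 of all 18169 genes tested.

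Among hypoxia factors and targets, 23 tested, 12 were above and 11 below 0 for CACF over high-fat diet. The mitophagy receptor gene bnip3la averaged 10.4 ± 0.962 TPM in CACF libraries, 2.77 ± 0.543 TPM in high-fat libraries and 7.52 ± 2.25 TPM in normal-diet libraries. For CACF over high-fat diet its log2 fold change was 1.59 ± 0.42 (limma, adjusted p = 0.109, and 0.0352 with the block). arnt, the partner subunit of the hypoxia-inducible factors, averaged 1.70 ± 0.0918 TPM in CACF libraries, 0.180 ± 0.0195 TPM in high-fat libraries and 0.865 ± 0.418 TPM in normal-diet libraries. For CACF over high-fat diet it had 1.19 ± 0.35 (limma, adjusted p = 0.132). Its high-fat and normal-diet averages were below the filter of 1 TPM. For high-fat over normal diet 20 of the 23 were below 0 (median -0.44), beside 9599 of all 18169 genes tested. The list summed to 214 and 207 TPM in high-fat libraries, and 571, 320 and 235.5 TPM in normal-diet fish 1, 2 and 4. In glycogen metabolism, gyg1b, a glycogenin gene that primes glycogen synthesis, averaged 30.2 ± 16.4 TPM in CACF libraries and 82.0 ± 31.0 TPM in normal-diet libraries (-1.45 ± 0.47, limma, adjusted p = 0.287, and 0.0277 with the block), among 17 tested genes that were divided 9 above and 8 below. The other glycogenin gene gyg1a had -0.80 ± 0.39 there (adjusted p = 0.427). All 7 tested genes, of 8 listed, that make or remove fructose-2,6-bisphosphate, the activator of phosphofructokinase, were above 0 for CACF over high-fat diet (median 0.39). Of all 18169 genes tested, 11426 were above 0 there. The 7 were led by pfkfb4a (1.2 ± 0.43, limma, adjusted p = 0.21). It averaged 10.1 ± 3.12 TPM in CACF libraries, 3.74 ± 0.636 TPM in high-fat libraries and 8.41 ± 2.37 TPM in normal-diet libraries. On the normalized counts pfkfb4a had 0.28. pfkfb4b had 1.09 ± 0.72 (limma, adjusted p = 0.597). Its TPM averaged 11.7 ± 6.22 in CACF libraries, 4.75 ± 1.84 in high-fat libraries and 16.4 ± 17.3 in normal-diet libraries. Gluconeogenesis genes summed to 30.2 and 64.9 TPM in CACF libraries and 339, 70.7 and 88.7 TPM in normal-diet fish 1, 2 and 4. In this reverse route, 5 of 7 tested genes were below 0 for CACF over normal diet (median -1.0), beside 6574 of all 18169 genes tested. fbp2, the muscle fructose-bisphosphatase gene, gave the smallest p there, for high-fat over normal diet, with 10.7 ± 2.57 TPM in high-fat libraries and 5.11 ± 1.83 TPM in normal-diet libraries (0.96 ± 0.39, adjusted p = 1.0), while g6pca.2 had -0.86 ± 0.79. The monocarboxylate transporter gene slc16a1b, whose product carries lactate, averaged 1.80 ± 0.594 TPM in CACF libraries and 0.316 ± 0.0441 TPM in high-fat libraries. Its log2 fold change for CACF over high-fat diet was 1.07 ± 0.36 (limma, adjusted p = 0.186). On the normal diet it averaged 0.565 ± 0.416 TPM, so it met the filter of 1 TPM only through the CACF libraries, where it was high. slc16a1a had 0.49 ± 0.41 for CACF over high-fat diet, but -0.31 on the normalized counts.

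Of 5 glucose transporter genes tested, 2 were above and 3 below 0 for CACF over normal diet, and the abundant slc2a3a averaged 23.6 ± 9.16 TPM in CACF libraries, 14.8 ± 0.616 TPM in high-fat libraries and 19.4 ± 6.12 TPM in normal-diet libraries. slc2a1a had -0.62 ± 0.36 for high-fat over normal diet (limma, adjusted p = 1.0). The 11 pentose phosphate genes had a median of 0.22 for CACF over high-fat diet, where pgls had 0.75 ± 0.39. There taldo1, the transaldolase gene, had 1.26 ± 0.51 (limma, adjusted p = 0.275). taldo1 averaged 31.4 ± 19.5 TPM in CACF libraries, 11.9 ± 5.55 TPM in high-fat libraries and 24.0 ± 4.23 TPM in normal-diet libraries. The 17 tricarboxylic acid cycle genes had medians of 0.04 for both CACF comparisons and -0.11 for high-fat over normal diet. Its isocitrate dehydrogenase genes idh3b and idh3g had 0.87 ± 0.43 and 0.85 ± 0.45 for CACF over high-fat diet (adjusted p = 0.405 and 0.461). The 11 tested genes that shuttle NADH into mitochondria had a median of 0.05 for CACF over normal diet, where gpd1l had 1.06 ± 0.39 (limma, adjusted p = 0.325) and gpd1a -0.74 ± 0.35 (adjusted p = 0.412).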

How the data were processed

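RNA came from whole larvae and was made into strand-keeping mRNA libraries, per the labels' protocols. The submitters' processing notes name FastQC, Trimmomatic, HISAT2 and DESeq2 without versions, and the deposited file names give the build GRCz11. How reads were counted was not given in the sources used here.

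Per library, the authors deposited TPM (a signal, whose assembled loci sum to 1000000), FPKM and read coverage per gene. For each comparison with the normal diet, the authors deposited normalized counts (a signal, the counts divided by size factors), log2 fold changes, a Wald score and p-values. Rows of a gene listed more than once (62 to 73 genes per library) were summed. The TPM of the 32520 reference genes summed to 739551 to 884988 per library, separately from the 1000000 of the assembled loci. The reference genes therefore had no common total across libraries. FPKM served only as an alternative, and coverage was not used.

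Groups were compared with limma 3.58.1 (R 4.3.3), fitted to log2(TPM + 1), with all 7 libraries in 1 fit of group means with a variance trend. Genes needed 1 TPM in 2 libraries, and a call is a Benjamini-Hochberg adjusted p below 0.05 over all 18169 genes. Fold changes on this scale understate the change of genes with few TPM. Values after ± are SE for fold changes and SD for levels. Every normalized count was a whole multiple of what 1 read was worth (100% within 0.001), so reads were recovered. edgeR 4.0.16 and DESeq2 1.42.0 were run on them as alternatives, and limma on log2 of the deposited normalized counts plus 1. Same-numbered fish of different groups had correlated deviations from their group means (0.101 to 0.373 over 6 pairs), but these pairs are not independent. In a group of 2 libraries the deviations mirror each other, so both pairs of CACF and high-fat libraries gave 0.194. CACF fish 2 correlated more with normal-diet fish 1 (0.16) than with normal-diet fish 2 (0.101). A pairing is therefore not established, and the fit with the fish number as a block is an alternative only. What the number stands for is not stated in the labels, and fish 1 has no partner. None of the 5 pairs of libraries within a group agreed within sampling noise.

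The main test was checked on simulated reads. For CACF over normal diet it recovered 97.0% of genes changed 16-fold, 17.9% of those changed 4-fold and 1.49% of those changed 2-fold (17657 genes). The simulation gave every gene the same variability beyond sampling noise and did not imitate the libraries that stood apart. Genes with few TPM were not among those changed, so recovery in the real libraries may differ. The members, isoform classes, marker lists and pathway lists were chosen with earlier results of these data known. All 32 members are named, and from each pathway list the genes past the threshold or, where none passed, the 2 with the smallest p in the comparison that held the smallest p of the list. A gene that this rule names is not reported here.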

Additional observations from a re-analysis of the deposited data

How the results depend on the processing

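For CACF over normal diet, where 14 of all genes passed, 2 passed with no filter, 39 with a filter of 5 TPM, 8 with quantile normalization, 64 with robust variances and 60 with the compared groups only. There 31 passed in limma on normalized counts, 4 in edgeR, 40 in edgeR with no filter and 671 in DESeq2. With each library left out the count lay between 1 and 126. Of the 32 glycolysis genes, where 0 passed, 1 passed with robust variances and 3 in DESeq2. For CACF over high-fat diet, where 1 of all genes passed, 5 passed with a pseudocount of 0.1, 0 with no filter, 4 with a filter of 5 TPM, 273 with robust variances, 0 with the compared groups only, 3 in limma on normalized counts, 0 in edgeR, 3 in edgeR with no filter and 960 in DESeq2. Leaving out each library gave 0 to 143. Of the 32, 2 passed in DESeq2. For high-fat over normal diet, 0 of all genes passed (120 higher and 482 lower at an unadjusted p below 0.05), and 1 did with robust variances. With the fish number as a block, 155 and 940 genes passed in the CACF comparisons over normal and high-fat diet, among them 0 and 2 of the 32 (pfkla and pklr); the block changed no other glycolysis gene's call. No other alternative called any of the 32. The cause of these differences was not tested.

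The fold changes of pklr, eno3, gapdh and pfkla kept their direction under every alternative in both CACF comparisons. For CACF over normal diet they lay between -2.31 and -1.64 for pklr, -1.65 and -0.84 for eno3, and -1.25 and -0.52 for gapdh. For CACF over high-fat diet pfkla lay between 0.76 and 1.95. In all, 19, 19 and 20 of the 32 genes kept their sign throughout in CACF over normal diet, CACF over high-fat diet and high-fat over normal diet. CACF larvae had the highest group mean of 21 genes in TPM and of 12 in normalized counts. High-fat larvae had it for 3 genes in TPM, 6 in FPKM and 11 in normalized counts. The same count over all genes was not made. In TPM, 11595 of 18169 genes were above 0 for CACF over normal diet and 11426 for CACF over high-fat diet. With 2 or 3 libraries a group, most 4-fold changes stayed below detection on simulated reads, within the limits of that simulation given above.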

Other observations

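A pair of genes, chosen after their values were seen, varied with the fish number more than with the group. gpib, the minor glucose-6-phosphate isomerase gene, had 4.52 TPM in fish 2 and 0.613 TPM in fish 4 of the CACF group. It had 3.29 and 0.691 TPM in fish 2 and fish 4 on the high-fat diet, and 4.38, 9.85 and 0.502 TPM in fish 1, 2 and 4 on the normal diet. Fish 4 was lowest in all 3 groups, and the fold change of gpib for CACF over normal diet ran from -1.46 to 0.31 as single libraries were left out. pfkpb ran the other way, and its normalized counts for fish 4 were 738 in the CACF group, 1048 on the high-fat diet and 1040 on the normal diet, against 279 to 452 in the other 4 libraries. What the fish number stands for is not stated in the labels, and no test was run on this split.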
